A study of Rattus norvegicus with 16 samples.

Results

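The neurotransmitter receptor subunits described here are the 112 probe sets, of 8740 non-control probe sets on the array, whose single annotated gene symbol names a subunit of a glutamate, GABA-A, glycine, nicotinic or muscarinic acetylcholine, or serotonin receptor. They measure 74 genes of the 4736 that carry a name. Membership goes by symbol alone and uses no measured value, although the rule was set with earlier results of these data known. RNA of rat pineal gland and retina was hybridised to 16 one-colour arrays. Their titles give hour 6 or 12 on either of 2 time scales, Zeitgeber time (ZT), which counts from lights on, and circadian time (CT), which follows the internal clock. The pineal gland has 1 array at each of ZT6, ZT12, CT6 and CT12, and the retina has 3 arrays at each, so 4 pineal arrays were set against 12 retina arrays. The labels give no strain, age, lighting or pooling, and do not say that the numbered arrays are different animals. The p-values below therefore cover only how much these samples vary, which may be technical variation. The source field names the retina on the pineal arrays too, and it reads brain in place of eye on the retina arrays numbered 3 and on the pineal ZT12 array. The description of that pineal array also gives 6 hours although its title gives 12, and the titles were followed.

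Ionotropic receptors are ion channels assembled from several subunits around a pore and opened directly by glutamate, GABA, glycine, acetylcholine or serotonin, whereas metabotropic glutamate, muscarinic and most serotonin receptors act through G proteins. In the retina, photoreceptors signal to bipolar cells with glutamate. ON bipolar cells sense it with the metabotropic receptor mGluR6, OFF bipolar and horizontal cells with AMPA and kainate receptors, and amacrine cells feed back with GABA and glycine. The pineal gland consists mainly of pinealocytes, which make melatonin at night under noradrenergic sympathetic control, and rat pinealocytes are also known to carry nicotinic receptors and to release glutamate.

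The arrays labelled pineal had high levels of genes of melatonin synthesis. Of 7 pineal markers 5 were on the array. Tph1, Ddc, Asmt and Aanat were above the retina by 8.10, 7.13, 4.84 and 3.72 log2 units, and the adrenergic receptor Adrb1 differed by -3.57. The retina arrays also carried lens transcripts, whose summed level ranged from 13.98 to 14.30 on the pineal arrays and from 15.69 to 20.89 on the retina arrays (log2, 12 genes). CT12 array 1 of the retina stood apart. Its median rank correlation with the other retina arrays was 0.837, against 0.944 to 0.962 for the others. Its rod, ganglion cell and general neuronal markers differed from the median of the other retina arrays by a median of -3.85, -3.78 and -2.36 log2 units, and its lens markers by 2.12. Of the 112 receptor probe sets, 42 had their lowest and 18 their highest retina value on this array, 53.6% in all, against 56.7% of all probe sets.

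**Figure D1:**
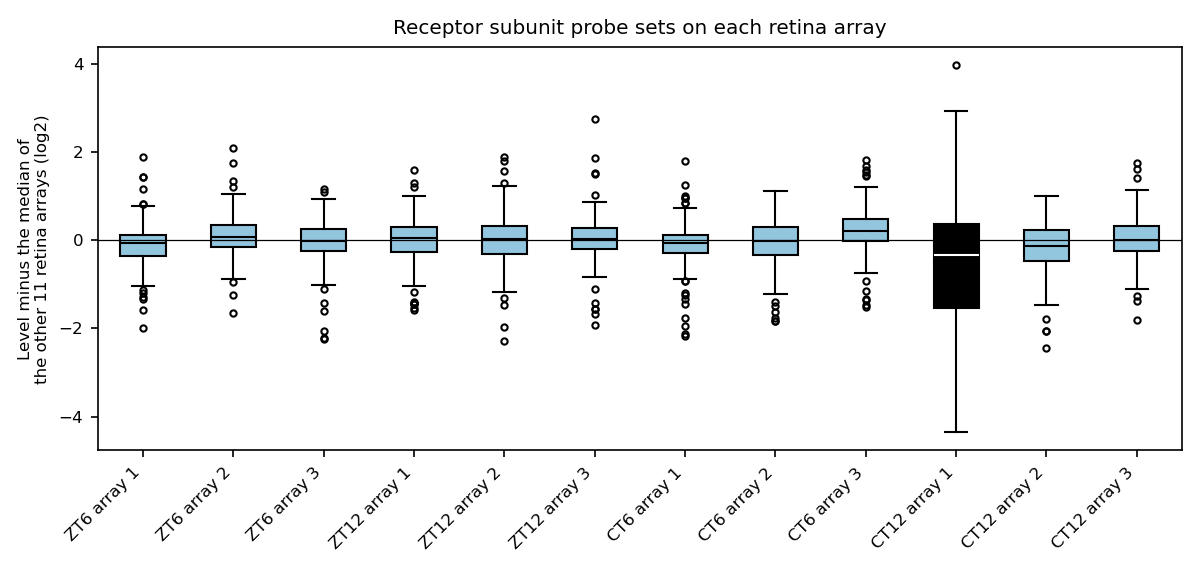
Level of each of the 112 receptor probe sets on each retina array minus its median over the other 11 (vertical axis, log2 units; horizontal axis, array). Boxes span the interquartile range of the probe sets with the median as a line, whiskers reach 1.5 box lengths, and the black box, CT12 array 1, is the widest and has the lowest median, -0.33.

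Intensities are given below as deposited. Differences are pineal minus retina on quantile-normalised log2(intensity + 16) values, with standard errors (SE) and limma p-values adjusted over all 5244 probe sets past a filter on the mean level. Only 41 of the 112 receptor probe sets, for 37 genes, passed that filter, and the other 71 had a mean below it. The mean was taken over all 16 arrays, 12 of them retina. A probe set bright only in the retina therefore passed more readily than one bright only in the pineal gland. The pineal markers Tph1 and Ddc, at mean levels of 14.3 and 13.5 log2 units in the pineal gland, did not pass. In bulk tissue, fewer cells of a type and less RNA per cell cannot be told apart. Of the 41, 15 were higher and 15 lower in the pineal gland. These 30 calls are 73.2% of the receptor probe sets tested, against 75.8% of all probe sets tested (39.4% higher and 36.4% lower). Among probe sets past the filter, those of receptor subunits were thus called about as often as others. Without retina CT12 array 1, 44 receptor probe sets passed the filter and 36 were called, 16 higher and 20 lower, against 80.9% of all probe sets (42.2% higher and 38.7% lower). Without any filter, 59 of the 112 (52.7%) were called, 23 higher and 36 lower, against 61.1% of all probe sets (34.5% higher and 26.5% lower). The 4 pineal arrays lay wholly above or wholly below the 12 retina arrays for 21 of the 112 (18.8%; 9 above, 12 below), against 37.4% of all probe sets (21% above, 16.4% below). Without CT12 array 1 that number was 35 (31.2% against 44.6%). The median difference was -0.25 log2 units over the 112 receptor probe sets and 0.22 over all probe sets.

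The median of all probe sets depended on the scaling, at 0.22 with quantile normalisation, -0.07 as deposited and 0.43 at a common median. All 30 called receptor probe sets kept their direction under these scalings, also relative to each scaling's own median. The split of calls did not stay the same. As deposited, 5 were higher and 21 lower, against 30.9% and 43.5% of all probe sets (74.4% in all). At a common median the split was again 15 and 15, against 44.7% and 33.1% of all probe sets (77.8% in all). The 10 calls lost as deposited were all rises, of at most 1.04 log2 units, and are named with their families below.

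**Figure D2:**
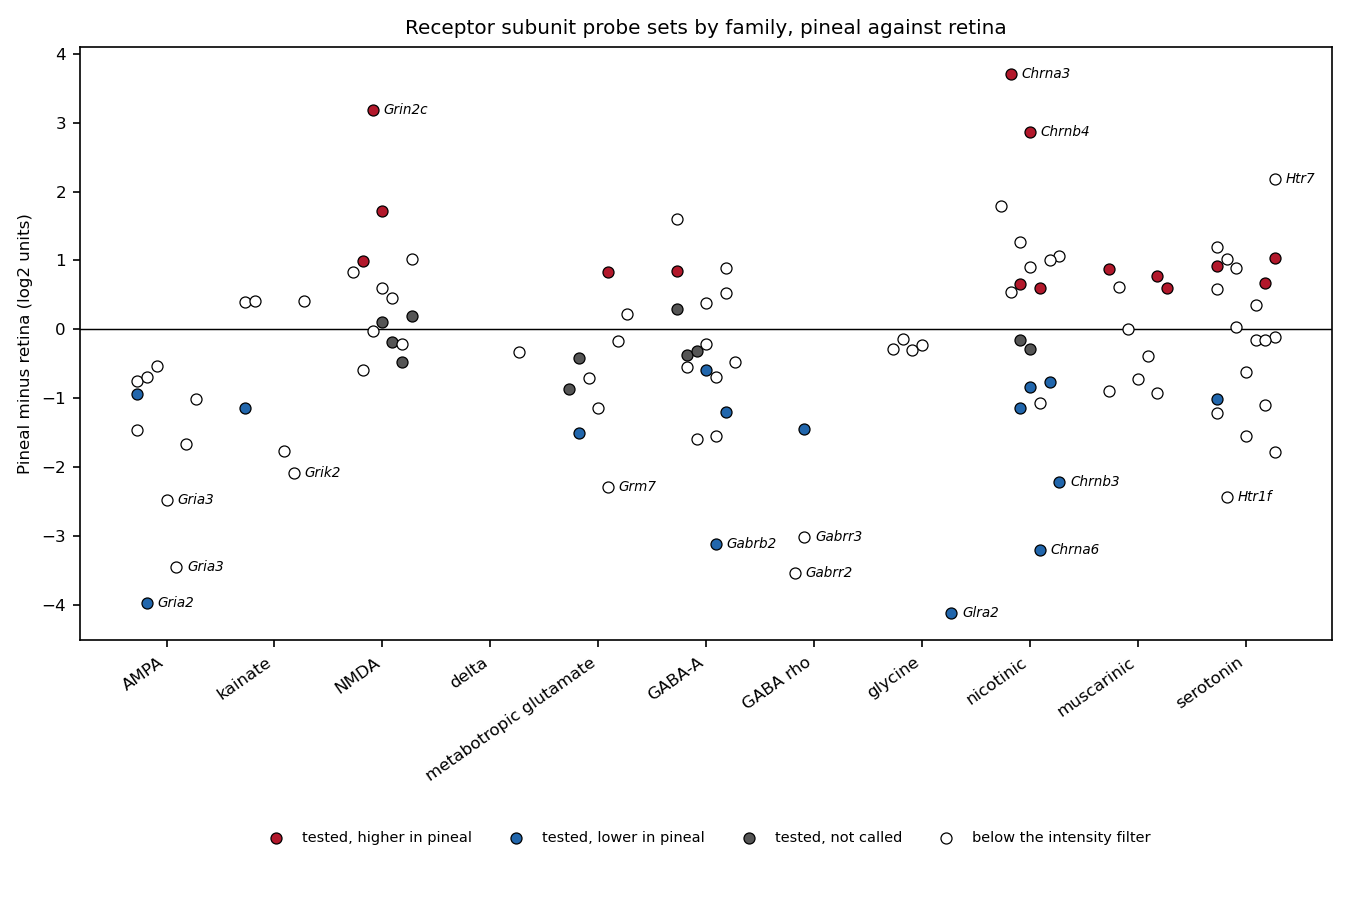
Pineal minus retina difference (vertical axis, log2 units) of each of the 112 receptor probe sets, arranged by family. Filled points passed the intensity filter and are red where higher in the pineal gland, blue where lower and grey where not called; open points did not pass it. Chrna3, Grin2c and Chrnb4 stand highest, and Glra2 and Gria2 lowest.

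Nicotinic acetylcholine receptors are cation channels of 5 subunits. Of their genes, Chrna3 and one probe set of Chrnb4 were much higher in the pineal gland, and Chrna6 and Chrnb3 were lower. Chrna3 encodes α3, the agonist-binding subunit of the ganglionic type of receptor. Its intensity on the pineal arrays was 12669.6 at ZT6, 14514 at ZT12, 8196 at CT6 and 15333 at CT12, against a lowest value of 321, a median of 994 and a highest value of 1302 on the retina arrays. Every pineal array was thus far above every retina array, and Chrna3 was 13.0-fold higher in the pineal gland (3.70 ± 0.25 log2 units, adjusted p = 6.76e-09). Chrnb4 encodes β4, which pairs with α3 in that receptor. One of its probe sets read 17628, 12478, 13874 and 12278 on the pineal arrays in the same order of conditions, against a lowest value of 1233, a median of 1731 and a highest value of 4003 on the retina arrays. The groups did not overlap and the fold was 7.31 (2.87 ± 0.25, adjusted p = 1.01e-07). Its highest retina value was on CT12 array 1, and the next highest was 2444. The second Chrnb4 probe set did not show this difference, with 759, 397, 994 and 254 on the pineal arrays and a retina range of 502 to 1230 (-0.15 ± 0.31, adjusted p = 0.661), so the level of Chrnb4 is uncertain between its probe sets. Chrna5, the accessory subunit α5 that joins α3 and β4, was below the filter. Its pineal values were 329, 160, 204 and 242, against a lowest value of 25.0, a median of 64.2 and a highest value of 271 in the retina. Its difference was 1.79 ± 0.41 (adjusted p = 0.0017 in the fit without the filter), with some overlap between the tissues.

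Chrna5, Chrna3 and Chrnb4 are immediate neighbours on rat chromosome 8. The brightest probe set of each had a positive difference, while the second Chrnb4 probe set did not. Their promoter windows, the 250 bases before the annotated RefSeq start on the GRCr8 build, are shown because these genes are neighbours and Chrna3 had the largest positive difference of the 112 probe sets. They lie at chr8:64265629-64265878 (plus strand), chr8:64311252-64311501 (minus strand) and chr8:64333110-64333359 (minus strand). Capitals mark matches to 4 motifs searched on both strands, namely the GC box GGGCGG bound by Sp1, the E-box CACGTG, the OTX and CRX homeobox core TAATCC and the cyclic AMP response element TGACGTCA.
Chrna5: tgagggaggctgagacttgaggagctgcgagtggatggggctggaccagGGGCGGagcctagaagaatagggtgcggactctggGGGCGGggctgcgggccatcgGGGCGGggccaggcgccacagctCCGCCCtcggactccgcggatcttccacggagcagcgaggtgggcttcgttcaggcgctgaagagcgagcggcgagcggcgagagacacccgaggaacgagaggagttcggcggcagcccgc
Chrna3: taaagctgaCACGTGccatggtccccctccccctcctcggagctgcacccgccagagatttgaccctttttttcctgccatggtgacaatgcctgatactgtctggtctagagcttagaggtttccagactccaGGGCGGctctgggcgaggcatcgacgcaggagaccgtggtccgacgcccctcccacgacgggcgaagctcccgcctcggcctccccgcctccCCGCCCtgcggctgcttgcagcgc
Chrnb4: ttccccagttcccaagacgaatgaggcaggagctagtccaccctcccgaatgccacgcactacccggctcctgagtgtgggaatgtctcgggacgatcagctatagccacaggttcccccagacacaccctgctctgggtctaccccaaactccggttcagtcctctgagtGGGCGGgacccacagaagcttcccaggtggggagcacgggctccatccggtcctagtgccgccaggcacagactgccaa
The GC box occurred 4 times in the Chrna5 window, 2 times in that of Chrna3 and 1 time in that of Chrnb4. The Chrna3 window also held 1 E-box, and the homeobox core and the cyclic AMP response element were in none of these windows. GC boxes are common, with 30.47% of 33469 promoter windows of this length holding at least 1. Of the 54 receptor genes matched to a promoter, 42.59% held one. For the E-box these shares were 5.59% of all windows and 3.7% of the receptor genes, for the homeobox core 6.34% and 11.11%, and for the cyclic AMP response element 1.59% and 0%. A match is a description of the letters and not evidence of binding.

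Other nicotinic subunits were higher in the retina. Chrna6 and Chrnb3 encode α6 and β3, which assemble together and are neighbouring genes on chromosome 16. Chrna6 read 120, 165, 76.2 and 85.9 on the pineal arrays, against 88.7 at the lowest, 2008 at the median and 2390 at the highest in the retina. The only retina value inside the pineal range was that of CT12 array 1, the next lowest being 1146, and the difference was -3.19 ± 0.53 (adjusted p = 7.39e-05), or -3.52 ± 0.18 without that array. Chrnb3 read 229, 251, 293 and 39.5 on the pineal arrays and 690, 1137 and 1459 at the lowest, median and highest in the retina. The groups did not overlap, the CT12 pineal array was well below the other 3, and the difference was -2.21 ± 0.27 (adjusted p = 4.62e-06). Chrna2, which encodes α2, was 2.20-fold lower (-1.14 ± 0.18, adjusted p = 4.73e-05), with 153 to 342 on the pineal arrays and 446 to 915 on the retina arrays.

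Of the 11 nicotinic probe sets tested, 4 were higher, 5 lower and 2 not called, beside 39.4% higher and 36.4% lower of all probe sets tested. The 2 small falls were Chrna4 (-0.83 ± 0.22, adjusted p = 0.00318), a subunit of the main high-affinity brain receptor, and Chrnb1 (-0.76 ± 0.14, adjusted p = 0.000204), a subunit of the muscle receptor. The 2 small rises, Chrna7 (0.65 ± 0.15, adjusted p = 0.000981), which forms homomeric channels, and Chrng (0.60 ± 0.17, adjusted p = 0.00484), the fetal muscle subunit, were lost on the values as deposited, at 0.15 and 0.26. Chrnd, another muscle subunit, differed by -0.28 ± 0.24 (adjusted p = 0.292). The fit without the filter called 8 of all 18 nicotinic probe sets higher and 6 lower, against 34.5% and 26.5% of all probe sets. In that fit, Chrna1, Chrna9 and a second probe set of Chrna7 were called higher, at 1.07, 0.90 and 1.27, and Chrnb2 was called lower, at -1.07. Chrne, the adult muscle subunit, at 1.01, and the third probe set of Chrna7, at 0.54, were not called in it.

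**Figure D3:**
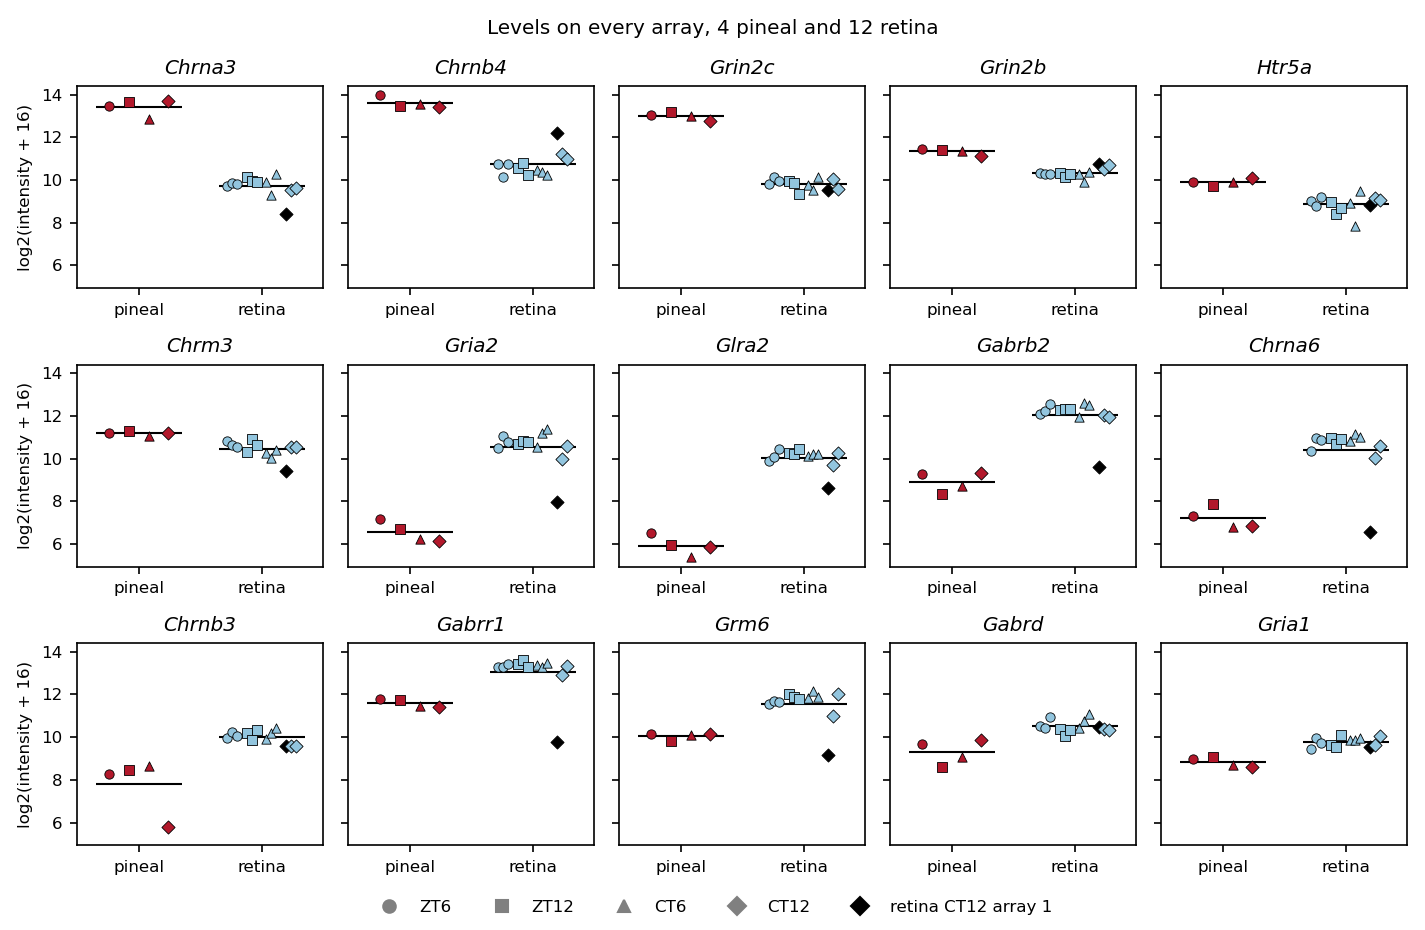
Levels of 15 receptor genes on every array (log2(intensity + 16) after quantile normalisation, vertical axis; brightest probe set of each gene), with 4 pineal arrays in red left of 12 retina arrays in blue; marker shape gives the condition, black is retina CT12 array 1, and lines are group means. The black point is the only retina point that does not lie above all pineal points for Chrna6, Gabrr1 and Grm6, and the pineal CT12 array is apart for Chrnb3.

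NMDA receptor genes differed by subunit. NMDA receptors are calcium-permeable glutamate channels that join the obligatory subunit Grin1 with Grin2 subunits, which set their kinetics. Grin2c encodes the GluN2C subunit known from cerebellar granule cells. Its brighter probe set read 9217, 10246, 9051 and 7286 on the pineal arrays, against 677, 986 and 1231 at the lowest, median and highest in the retina. The lowest pineal array was far above the highest retina array, and Grin2c was 9.04-fold higher (3.18 ± 0.15, adjusted p = 2.03e-10). Its second probe set gave 2160, 1821, 2771 and 1414 on the pineal arrays and 372 to 1388 in the retina, again without overlap but with a smaller fold of 3.28 (1.71 ± 0.22, adjusted p = 5.98e-06). Grin2b, whose product GluN2B is prominent early in brain development, was 1.99-fold higher (0.99 ± 0.13, adjusted p = 8.21e-06). Its 4 pineal values ran from 1781 to 2430, against 1000 to 1822 in the retina, a slight overlap as deposited that was absent after normalisation. Grin1 differed by 0.11 ± 0.17 (adjusted p = 0.572) in the brightest of its 4 probe sets, with intensities of 896 to 1284 on the pineal arrays and 689 to 1695 on the retina arrays. The other probe sets of Grin1 ranged from -0.58 to 1.01. Grin2a, at -0.18 ± 0.50 (adjusted p = 0.747), and Grin2d, at -0.48 ± 0.29 (adjusted p = 0.15) and 0.19 in its 2 probe sets, were not called, although the first of these was lower on the values as deposited (-0.96, adjusted p = 0.00852). The 3 Grin3a probe sets, for a modulatory subunit, were below the filter and ranged from -0.21 to 0.60.

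AMPA receptors are the fast glutamate channels. Of the 10 probe sets for their subunits Gria1 to Gria4, 2 passed the filter and both were lower in the pineal gland. Because the filter lets probe sets high in the retina pass more readily, this count does not show a direction for the family. In the fit without the filter 8 of the 10 were called lower and 2 were not called, against 26.5% of all probe sets called lower. The median of the 10 differences was -1.24, beside 0.22 for all probe sets. Gria2 encodes GluA2, the subunit that makes the channel impermeable to calcium after RNA editing. It read 110, 74.4, 49.4 and 51.1 on the pineal arrays, against 235, 1801 and 2846 at the lowest, median and highest in the retina. The groups did not overlap even though the lowest retina value, on CT12 array 1, was far below the next, 1112, and Gria2 was lower (-3.96 ± 0.36, adjusted p = 2.01e-07). Its pineal values are also dim, and the difference ran from -4.24 to -3.42 over the settings tried. Its second probe set was below the filter and differed by -0.53, so the sign was shared but the size for Gria2 is uncertain between its probe sets. Gria1, for GluA1, read 388, 392, 301 and 284 on the pineal arrays and 672 to 1215 in the retina, a 1.92-fold lower level without overlap (-0.94 ± 0.15, adjusted p = 4.34e-05). Its dimmer probe sets differed by -0.75 and -0.69. Gria3, for GluA3, was below the filter. One of its probe sets gave 19.1, 31.4, 36.8 and 29.3 on the pineal arrays and 314 to 659 in the retina, with a difference of -3.44 ± 0.19 (adjusted p = 2.50e-09 in the fit without the filter). The other gave 63.1, 48.3, 51.7 and 255 on the pineal arrays, the last at CT12, and differed by -2.47. The 3 probe sets of Gria4, for GluA4, were also below the filter, at -1.66, -1.46 and -1.01.

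Among kainate receptor genes, which encode a related class of glutamate channels, Grik5 was the one that passed the filter. It encodes GluK5, an auxiliary high-affinity subunit, and read 1010, 680, 848 and 764 on the pineal arrays, against 1084, 2619 and 3569 at the lowest, median and highest in the retina. The lowest retina value was that of CT12 array 1, the next being 2263, and Grik5 was 2.20-fold lower in the pineal gland (-1.14 ± 0.19, adjusted p = 8.11e-05). Below the filter, Grik1 differed by -1.77 and Grik2 by -2.09, while Grik3 and both probe sets of Grik4 lay between 0.40 and 0.41. The delta receptor gene Grid1 was dim in both tissues, with 97.6 to 161 on the pineal arrays and 149 to 514 in the retina (-0.33, not called in the fit without the filter).

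Metabotropic glutamate receptor genes went both ways. Grm6 encodes mGluR6, the receptor of ON bipolar cells. Its pineal values were 896, 655, 838 and 823, against 544, 3832 and 4720 at the lowest, median and highest in the retina. CT12 array 1 was below every pineal array, the next lowest retina value being 2132, and Grm6 was 2.82-fold lower in the pineal gland (-1.50 ± 0.36, adjusted p = 0.0018), or 3.26-fold without that array. The call was lost on the arrays with eye in the source field (-1.09, adjusted p = 0.0544), a set that keeps CT12 array 1. Grm4, for the presynaptic receptor mGluR4, had 2666, 2648, 1834 and 2688 on the pineal arrays and 829, 1758 and 2492 at the lowest, median and highest in the retina. The CT6 pineal array lay inside the retina range, and the rise of 0.84 ± 0.21 (adjusted p = 0.00217) was lost on the values as deposited (0.51, adjusted p = 0.0575). Grm2 (-0.86 ± 0.50, adjusted p = 0.132) and Grm7 (-0.41 ± 0.26, adjusted p = 0.161), both presynaptic receptors, were not called. Without CT12 array 1 they were lower, at -1.11 (adjusted p = 0.00814) and -0.56 (adjusted p = 0.000334). The dimmer genes Grm3, Grm5 and Grm8 differed by -0.71, -1.14 and 0.22, and the dimmer probe sets of Grm7 by -2.28 and -0.17.

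GABA rho subunits form the slow GABA channels of retinal bipolar cells. All 3 probe sets, for 3 genes, had negative differences. Gabrr1, for ρ1, was bright in both tissues, with 3155, 2948, 2471 and 2275 on the pineal arrays, against 790, 9710 and 12154 at the lowest, median and highest in the retina. CT12 array 1 was below every pineal array, while the other 11 retina arrays, from 7057 upwards, were above them all. Gabrr1 was 2.71-fold lower in the pineal gland (-1.44 ± 0.46, adjusted p = 0.0109), and 3.28-fold without that array (-1.71 ± 0.10, adjusted p = 3.24e-09). On the arrays with eye in the source field the call was lost (-1.11, adjusted p = 0.147). Gabrr2, for ρ2, gave 36.6, 47.6, 36.6 and 60.003 on the pineal arrays and 83.1, 888 and 1497 in the retina, and Gabrr3, for ρ3, gave 45.3, 14.5, 31.9 and 23.6 on the pineal arrays and 54.7, 435 and 644 in the retina. Neither overlapped, and both lay below the filter, with differences of -3.53 ± 0.48 (adjusted p = 2.15e-05 without the filter) and -3.01 ± 0.43 (adjusted p = 3.37e-05 without the filter).

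Gabrr2 and Gabrr1 are neighbours on chromosome 5 and had differences of one sign. Their windows, at chr5:52248228-52248477 and chr5:52320225-52320474 (both plus strand), are shown for comparison with the nicotinic windows, with capitals for the same motifs.
Gabrr2: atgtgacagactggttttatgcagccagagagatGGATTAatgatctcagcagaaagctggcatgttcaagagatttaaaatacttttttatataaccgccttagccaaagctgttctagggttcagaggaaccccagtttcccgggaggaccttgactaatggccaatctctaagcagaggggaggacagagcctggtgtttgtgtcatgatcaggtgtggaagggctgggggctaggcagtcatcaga
Gabrr1: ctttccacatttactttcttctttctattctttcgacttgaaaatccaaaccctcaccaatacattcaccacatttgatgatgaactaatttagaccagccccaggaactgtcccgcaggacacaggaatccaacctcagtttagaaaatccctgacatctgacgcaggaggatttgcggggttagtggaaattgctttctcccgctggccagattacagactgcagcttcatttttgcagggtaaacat
The Gabrr2 window held the homeobox core TAATCC 1 time, on the reverse strand, and the Gabrr1 window none of the 4 motifs. All 74 receptor genes were placed in the annotation, and 17 of them formed 8 runs of neighbours. Neighbours did not always share a direction. Gabra6 and Gabrb2 on chromosome 10 had opposite differences, 1.60 for Gabra6 and -3.11 for Gabrb2. Signs were also opposite for Gabrg3 (-0.69) with Gabra5 (0.89), Gabra2 (-0.59) with Gabrg1 (0.38) and Chrnd (-0.28) with Chrng (0.60), not all of them called.

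**Figure D4:**
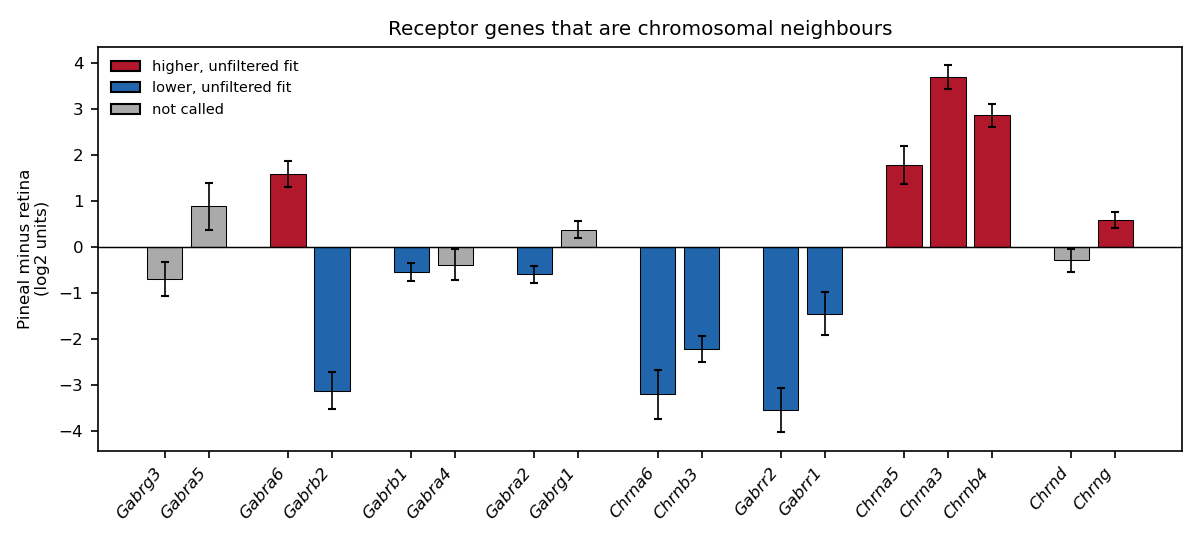
Pineal minus retina difference (vertical axis, log2 units; brightest probe set, bars with SE from the fit without the intensity filter) of the 17 receptor genes that are neighbours on a chromosome, with a gap between runs. Red and blue bars were called higher or lower in that fit and grey bars were not. The run Chrna5, Chrna3 and Chrnb4 is all red, and the runs Chrna6 with Chrnb3 and Gabrr2 with Gabrr1 are blue. The run Gabra6 with Gabrb2 has both colours.

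GABA-A receptors are the chloride channels of fast inhibition, and 7 of their 17 probe sets were tested, with 1 higher, 3 lower and 3 not called. Of all probe sets tested, 39.4% were higher and 36.4% lower. The fit without the filter called 2 of the 17 higher and 6 lower, against 34.5% and 26.5% of all probe sets. Gabrb2 encodes β2, part of the most common receptor of the brain. It read 491, 236, 300.2 and 474 on the pineal arrays, against 705, 4985 and 6222 at the lowest, median and highest in the retina. No array overlapped although CT12 array 1 was low, the next retina value being 3984, and Gabrb2 was 8.66-fold lower (-3.11 ± 0.39, adjusted p = 5.31e-06). Its dimmer probe set differed by -1.59. Gabrd, for δ, a subunit of extrasynaptic receptors, read 641, 278, 384 and 667 on the pineal arrays and 1166, 1464 and 2301 in the retina, a 2.30-fold lower level without overlap (-1.20 ± 0.19, adjusted p = 4e-05). Its second probe set was not called (-0.31 ± 0.19, adjusted p = 0.144), but it was called lower in 3 of 28 settings, without CT12 array 1 (-0.41, adjusted p = 0.00594), as deposited and with array weights. Gabra2, for α2, was lower by 0.59 ± 0.18 (adjusted p = 0.00954), and this call was lost without the pineal ZT12 array and on the arrays with eye in the source field, with an adjusted p of 0.202 at the highest.

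Gabre, for ε, was the GABA-A subunit that rose, by 0.84 ± 0.16 (adjusted p = 0.000278), with 511 to 968 on the pineal arrays and 412 to 775 in the retina. The rise was lost as deposited (0.35, adjusted p = 0.086). Gabra3 (0.29 ± 0.39) and Gabra4 (-0.37 ± 0.32) were not called, at adjusted p = 0.506 and adjusted p = 0.3. Gabra6, for α6, a subunit known from cerebellar granule cells, was below the filter. Its values of 646, 480, 517 and 577 on the pineal arrays were all above the retina range of 81.9 to 410 (1.60 ± 0.28, adjusted p = 0.000183 without the filter). Of the other GABA-A probe sets below the filter, one of Gabra4 (-1.54) and that of Gabrb1 (-0.54), for β1, were called lower in that fit. Gabra5 (0.89 and -0.48), the second probe set of Gabra3 (-0.22), the γ subunit genes Gabrg1 (0.38) and Gabrg3 (-0.69) and Gabrp (0.54), for π, were not called in it.

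Glycine receptors, the other inhibitory chloride channels, had 5 probe sets, all with negative differences. Glra2 encodes α2. It read 69.4, 44.0, 23.4 and 41.0 on the pineal arrays, against 376, 1245 and 1528 at the lowest, median and highest in the retina. All retina arrays, CT12 array 1 at 376 among them, were above all pineal arrays, and Glra2 was lower in the pineal gland (-4.11 ± 0.25, adjusted p = 2.57e-09). The pineal values are near the added 16 and no detection calls were used, so the size is uncertain, and it ran from -4.53 to -3.33 over the settings tried. Glra1 and Glra3 were below the filter, with 4 probe sets between -0.30 and -0.13, none of them called in the fit without the filter.

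The 3 muscarinic probe sets tested were all slightly higher in the pineal gland. Chrm3, for the M3 receptor that couples to calcium release, read 2002, 2093, 1776 and 1871 on the pineal arrays, against 627, 1600 and 2103 at the lowest, median and highest in the retina. The tissues overlapped as deposited and did not after normalisation (0.77 ± 0.19, adjusted p = 0.00219). Chrm4 (0.60 ± 0.17, adjusted p = 0.00602) and Chrm5 (0.88 ± 0.36, adjusted p = 0.0395) overlapped in both. All 3 were lost as deposited, with differences of 0.40, 0.10 and 0.39, and the second probe sets of Chrm3 and Chrm4, below the filter, had the opposite sign. Chrm5 was called in 15 of 28 settings and was lost without the pineal ZT12 array (0.48, adjusted p = 0.261) and without the ZT6 or the CT12 one. It was also lost without the filter, with array weights, without the condition covariate and on the arrays with eye in the source field. The fit without the filter called 3 of the 9 muscarinic probe sets higher and 1 lower, against 34.5% and 26.5% of all probe sets. Below the filter, Chrm1 had probe sets at 0.61 and -0.89 and Chrm2 at 0.01 and -0.72.

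Serotonin receptor genes had 4 probe sets tested of 20, with 3 higher and 1 lower, beside 39.4% and 36.4% of all probe sets tested. The fit without the filter called 5 of the 20 higher and 6 lower, against 34.5% and 26.5% of all probe sets, so the 4 tested show no direction for the family. Htr5a, for a Gi-coupled receptor, read 737, 604, 703 and 788 on the pineal arrays, against 193, 507 and 737 in the retina. It was 2.05-fold higher without overlap after normalisation (1.04 ± 0.22, adjusted p = 0.000693), and was lost as deposited (0.54, adjusted p = 0.0628). Htr6, a Gs-coupled receptor, was higher by 0.92 ± 0.23 (adjusted p = 0.00237) and also lost as deposited (0.42). Htr3a encodes the serotonin-gated ion channel and gave no single answer. Its brightest probe set read 1176, 1594, 1120 and 1673 on the pineal arrays and 354, 1268 and 1598 in the retina (0.67 ± 0.27, adjusted p = 0.0346). This call was lost as deposited (0.24, adjusted p = 0.466), on the arrays with eye in the source field and without the pineal ZT12 or the pineal CT12 array. A dimmer one had 142, 122.6, 111 and 75.4 on the pineal arrays, all below the retina range of 208 to 648, for a difference of -1.22, and the other probe set differed by 1.02. Htr1d, a Gi-coupled receptor, was 2.01-fold lower (-1.005 ± 0.19, adjusted p = 0.000251), with overlapping arrays. Htr7, another Gs-coupled receptor, was below the filter. One of its probe sets read 261, 330, 211 and 356 on the pineal arrays against 13.4, 75.3 and 237 in the retina (2.18 ± 0.40, adjusted p = 0.000267 without the filter), and the other differed by 1.20. Lower values were found for Htr1f (-2.43), both probe sets of Htr2c (-1.09 and -1.78) and one of Htr2a (-1.55), all below the filter and called in the fit without it. The remaining dim probe sets, of Htr1a, Htr1b, Htr2a, Htr2b, Htr4 and Htr5b, were between -0.61 and 0.90, and that fit called none of them.

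Probe sets of one gene often differed. Of the 28 receptor genes with more than 1 probe set, 15 had differences of one sign in all and 13 did not. Of the 30 called probe sets, 17 kept their call in every one of the up to 28 alternative settings in which they passed the filter. The 5 higher ones were Chrna3, Chrnb4, both of Grin2c and Grin2b. The 12 lower ones were Gria1, Gria2, Grik5, Gabrb2, Gabrd, Glra2, Chrna2, Chrna4, Chrna6, Chrnb1, Chrnb3 and Htr1d. This split depends on the scaling, since all calls lost on the values as deposited were rises. With that scaling 30.9% of all probe sets tested were higher and 43.5% lower. The share of all probe sets that kept their call in every setting was not computed, so the split shows no direction for receptors.

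Scaffold and auxiliary proteins anchor receptors at the membrane. Of 49 such genes listed 31 were on the array and 19 were tested, 6 higher and 9 lower in the pineal gland. Of all probe sets tested, 39.4% were higher and 36.4% lower. Homer2 and Homer1, which tether metabotropic glutamate receptors, rose by 1.88 ± 0.27 (adjusted p = 1.93e-05) and 1.05 ± 0.23 (adjusted p = 0.000836), and syntenin, Sdcbp, rose by 1.14 ± 0.12 (adjusted p = 5.56e-07). Nsf, the fusion ATPase that also binds GluA2, fell by 6.63 ± 0.80 (adjusted p = 3.54e-06). Its levels ran from 5.40 to 7.69 log2 units in the pineal gland and from 8.54 to 14.47 in the retina. Retina CT12 array 1 differed from the median of the other retina arrays by -5.19. The membrane-associated guanylate kinases Dlg1 and Dlg4, which hold AMPA and NMDA receptors at synapses, fell by 3.86 ± 0.41 (adjusted p = 9.48e-07) and 1.84 ± 0.20 (adjusted p = 1.34e-06). Each gene was taken by its brightest probe set, of 2 for Nsf, 3 for Dlg1 and 6 for Homer1, and agreement with the dimmer ones was not examined. The median of the 31 was -0.58, beside -0.25 for the receptors and 0.22 for all probe sets. Of 10 receptor genes outside the rule, 7 were tested and 3 rose and 2 fell, beside 39.4% and 36.4% of all probe sets tested. They were led by the ATP-gated channel P2rx4 (1.72 ± 0.14) and by Grina (-3.93 ± 0.23), whose protein was named for an NMDA receptor it is no subunit of. The GABA-B receptor subunit Gabbr1 fell by 1.44 ± 0.29. Marker lists differed in part between the tissues, and their part in the receptor differences was not tested. Summed levels of ganglion cell markers were 13.81 to 14.18 on the pineal arrays, inside the range of 13.06 to 16.34 on the retina arrays (log2, 7 of 10 listed genes). Of these 7, 4 were lower in the pineal gland, 1 was higher (Gap43, 1.72) and 2 were not called. Summed general neuronal markers, 16.07 to 16.31 on the pineal arrays, also lay inside the retina range of 14.47 to 17.33. Of the 10 tested, 6 were lower in the pineal gland, 2 were higher and 2 were not called. Both retina ranges include CT12 array 1. On it, ganglion cell and neuronal markers differed from the median of the other retina arrays by a median of -3.78 and -2.36. The sums were not compared without that array, so these ranges do not show that the tissues are alike. For bipolar, amacrine and horizontal cell markers the sums were 13.84 to 13.97 on the pineal arrays and 14.40 to 16.52 on the retina arrays (10 of 13). Of the 9 tested, 7 were lower, 1 was higher (Calb1, 1.58) and 1 was not called.

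The retina comparisons ask whether receptor transcripts differ between hours 12 and 6 and between circadian and Zeitgeber time. Of the 51 receptor probe sets past the filter of the 12 retina arrays, 0 were called in any of 6 comparisons by limma. Unadjusted p was under 0.05 for 2 of them at ZT12 against ZT6, 20 at CT12 against CT6, 2 at CT6 against ZT6, 17 at CT12 against ZT12, 9 for hour 12 against hour 6 over both regimes and 13 for the difference of the hour effects. Few probe sets of any kind were called, with 0.286%, 0.0381%, 0%, 0.61%, 0.21% and 0.0191% of all probe sets tested in those comparisons.

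The receptor with the smallest p under circadian time was Chrng. It read 2594, 2333 and 2447 on the CT12 arrays and 1440, 1427 and 1425 on the CT6 arrays. All CT12 values were above all CT6 values and also above the ZT12 values of 1641, 1459 and 1412, but the differences did not pass (0.88 ± 0.17, adjusted p = 0.0953 against CT6, and 0.80 ± 0.17, adjusted p = 0.0795 against ZT12). Without CT12 array 1 they were 0.75 (adjusted p = 0.0797) and 0.67 (adjusted p = 0.0863), and the difference between the CT and ZT hour effects, 1.04 with all arrays (adjusted p = 0.169), was 0.90 (adjusted p = 0.0976). Htr2c read 368, 203 and 469 at CT12 and 509, 658 and 759 at CT6 (-1.004 ± 0.28, adjusted p = 0.122). Chrnb1 read 1449, 1793 and 2067 at CT12 and 1270, 1201 and 1149 at ZT12 (0.60 ± 0.15, adjusted p = 0.103). The dimmer probe set of Grin2c read 398, 372 and 842 at CT12, 954, 923 and 923 at CT6, 1110, 1388 and 864 at ZT12, and 490, 687 and 997 at ZT6. Its hour effect differed between CT and ZT by -1.61 ± 0.44 (adjusted p = 0.204).

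Under Zeitgeber time the smallest p was that of Chrm5, with 635, 103 and 129 on the ZT12 arrays and 618, 672 and 604 on the ZT6 arrays (-1.40 ± 0.50, adjusted p = 0.417). ZT12 array 1 was at the ZT6 level and the other 2 were far below it. Without that array the difference was -2.15 (adjusted p = 0.0068), and Chrm5 was then also called at CT12 against ZT12 and for the hour over both regimes. At CT6 against ZT6, one probe set of Grin2d differed by -0.60 ± 0.21 (adjusted p = 0.924) and one of Grm7 by 1.00 ± 0.45 (adjusted p = 0.974). Over both regimes one probe set of Gria3 differed by -0.46 ± 0.15 between hours 12 and 6 (adjusted p = 0.213).

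The CT12 results rested on which arrays were used. The receptor probe sets had a median difference of -0.46 at CT12 against CT6, beside -0.06 for all probe sets tested, and it was -0.19 without CT12 array 1, where again 0 of 55 were called (0.133% of all probe sets), and 16 of the 55 had an unadjusted p under 0.05. In the other 5 comparisons without that array 0 of 55 were called as well, against 1.51% of all probe sets at ZT12 against ZT6, 0% at CT6 against ZT6, 0.61% at CT12 against ZT12, 1.3% for the hour over both regimes and 0.0191% for the difference of hour effects, and 4, 4, 13, 9 and 14 of the 55 had an unadjusted p under 0.05. Without CT12 array 3, which leaves arrays 1 and 2, 18 receptor probe sets were called at CT12 against CT6, 3 higher and 15 lower, and 13 at CT12 against ZT12, 4 higher and 9 lower, while 24.9% (9.04% higher, 15.9% lower) and 20.4% (7.84% higher, 12.6% lower) of all probe sets were called. For the difference of hour effects 2 were called, both lower, one probe set each of Grin2c and Gria1 (1.2% of all probe sets, 0.4% higher and 0.801% lower). Chrna6 then differed by -2.72, Gabrr2 by -2.44 and Gria2 by -2.04 at CT12 against CT6. On CT12 array 1 these differed from the median of the other retina arrays by -4.35, -3.30 and -2.77 log2 units. The rod, ganglion cell and neuronal markers were low on the same array, and their part in these values was not tested.

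In the pineal gland, 2 arrays at hour 12 were compared with 2 at hour 6 in a fit with the retina arrays. Of 41 receptor probe sets, 0 were called by limma, against 1.41% of all probe sets, and 2 had an unadjusted p under 0.05. These were the second Chrnb4 probe set, with 397 and 254 at hour 12 (ZT and CT) and 759 and 994 at hour 6 (-1.35 ± 0.39, adjusted p = 0.14), and Chrnb3, with 251 and 39.5 at hour 12 and 229 and 293 at hour 6 (-1.33 ± 0.52, adjusted p = 0.335). The brighter Chrnb4 probe set had 12478 and 12278 at hour 12 and 17628 and 13874 at hour 6, and was not called. Without the ZT12 array, whose labels disagree on the hour, hour 12 was CT12 alone and Chrnb3 was called (-2.61 ± 0.35, adjusted p = 0.00219), as was its difference from the retina's hour effect (-2.33 ± 0.39, adjusted p = 0.0105). This fit assumes that the lone array varies like the others, and with all arrays 0 of 41 differed between the tissues in their hour effect, against 0.477% of all probe sets (1 with an unadjusted p under 0.05).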

How the data were processed

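The authors deposited 1 table of linear intensities for 8799 probe sets, with nearly equal trimmed means per array (2503 to 2506, with 2% trimmed at each end), per the values. The summarisation, background correction and scaling are not stated in what was used here. After 59 control probe sets were dropped, the arrays of each fit were quantile normalised, 16 was added, log2 was taken and probe sets at or above the 40th percentile of the mean were kept, at 8.82 for all 16 arrays and 8.88 for the retina. Tests used limma 3.58.1 in R 4.3.3 (lmFit, eBayes, two-sided, Benjamini-Hochberg over 5244 probe sets, threshold 0.05). Pineal against retina was fitted with condition as a covariate (11 residual and 2.79 prior degrees of freedom), the 4 retina groups with a shared spread (8 and 2.54), and the pineal hour with tissue by hour and regime. Arrays give no counting depth, and their number limits the precision.

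Probe sets were named from GEO's platform annotation, of which 7006 had 1 symbol, 308 several and 1426 none. Promoter sequences and gene order came from RefSeq (GRCr8). A gene was represented by its brightest probe set. By the rule for named genes, values were given for up to 10 higher and 14 lower members called without overlap between the tissues, the brightest of each family in each tissue, the 2 with the smallest p in each hour comparison and up to 3 scaffold genes a direction. Others were named with a difference, some with intensities chosen after their values were seen, and the promoters and motifs were picked after values were seen. The members, lists, rule and alternatives were chosen with earlier results of these data known. The procedure was also run on simulated data with independent noise and no outlying array, which differs from these data, and nothing above rests on it. Alternatives were offsets 1 and 64, other scalings and filters, a trended robust prior, array weights, the source label, no condition covariate, the title number as a block and each array left out.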

Additional observations from a re-analysis of the deposited data

Results flagged for a closer look

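Among the 4 pineal arrays, 1 array stood far from the other 3 for 4 of the 28 named receptor genes checked, by Dixon's rule at 95%, which divides the gap to the nearest value by the range. Chance gives about 1 in 20 such results, and the same rule found an outlying pineal array for 14 of the 112 receptor probe sets (12.5%) and for 6.34% of all 8740. The 28 were partly chosen by their values, Chrnb3 for its p in the pineal hour comparison, so their share cannot be read against these. Chrnb3 was 5.80 on the CT12 array and 8.26 to 8.66 on the others (log2 after normalisation). Gria3 was 8.45 on the CT12 array and 6.09 to 6.37 on the others. Grm4 was 11.11 on the CT6 array and 11.59 to 11.66 on the others. Grm6 was 9.81 on the ZT12 array, the one whose labels disagree on the hour, and 10.11 to 10.15 on the others. All 4 genes kept the sign of their pineal minus retina difference without these arrays.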

How the results depend on the processing

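The count of called receptor probe sets, 30 at pineal against retina, was 59 with no filter and 14 with a filter at the 60th percentile, which test 112 and 15 probe sets. Leaving out 1 array in turn gave 28 to 36, and the other settings gave 22 to 32. Of the 41 receptor probe sets tested, 7 changed sign in at least 1 setting, and 0 of these were among the 30 called. They were those of Grin1, Grin2a, Gabra3, Gabra4, the second one of Chrnb4 and both of Grin2d, the first of which ran from -0.729 to 0.0588 with 1 array left out and was 0.059 without the pineal CT12 array. Probe sets of one gene had opposite signs in 13 genes, among them Chrnb4 (-0.15 in the second) and Grin2d (0.19). The cause was not tested. In the retina, array weights, whose estimation did not fully converge, called 35 receptor probe sets at CT12 against CT6, 27 at CT12 against ZT12, 12 for the hour over both regimes and 16 for the difference of hour effects, while 48.1%, 49%, 27.3% and 26.1% of all probe sets were called. Leaving out 1 array gave 0 to 1 at ZT12 against ZT6, 0 to 18 at CT12 against CT6, 0 to 13 at CT12 against ZT12, 0 to 1 for the hour, 0 to 2 for the difference of hour effects, 0 to 1 for the pineal hour and 0 to 1 for its difference from the retina. The arrays with eye in the source field alone, where hour 12 of the pineal gland is 1 array and is assumed to vary like the others, gave 2 for the pineal hour, Chrnb3 (-2.60) and the second Chrnb4 probe set (-1.88). With a replicate block by title number 0 receptor probe sets were called in each of the 6 retina comparisons, as without it. Over the 6 pairs of same-numbered retina arrays, correlations ran from 0.004 to 0.414 for number 1. They ran from -0.413 to 0.11 for number 2 and from -0.143 to 0.359 for number 3. They were thus all positive for number 1 and of both signs for numbers 2 and 3, which does not settle whether same-numbered arrays belong together. The numbers were not taken as pairs in the main fits. The pineal arrays carry no numbers, so the tissue comparison had no such fit. Signal over background could not be judged, since no detection calls were used.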
